A study of Mus musculus with 6 samples.

Results

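The genes described here encode 10 kinase receptors for bone morphogenetic proteins (BMPs), activins, nodal and TGF-beta. They were taken by name from the 53465 genes counted in each library: the type I receptors Bmpr1a, Bmpr1b, Acvr1, Acvrl1, Acvr1b and Tgfbr1, and the type II receptors Bmpr2, Acvr2a, Acvr2b and Tgfbr2. All 10 were counted and tested. The study sequenced poly(A) RNA of Royan B20, an established mouse embryonic stem cell line. All cultures had been passaged 7 times with the cytokine LIF on 0.1% gelatin, in R2i medium. This medium holds 10 µM SB431542 and 1 µM PD0329501 (spelled as in the labels), which inhibits MEK. The 3 BMP-inhibited libraries came from R2i cultures that also received 250 nM noggin and 5 µM dorsomorphin. The 3 R2i control libraries came from cultures without these 2 additions. The design asks how the cells differ when BMP inhibitors are added, and SB431542 was present on both sides of the comparison. Replicates within a group are biological according to the labels. The labels give neither the strain nor the sex of the line, nor how long the BMP inhibitors were present. The results come from this 1 line.

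A ligand of this family brings together type II and type I receptors at the cell surface. The type II kinase phosphorylates the type I receptor, which then phosphorylates SMAD proteins that enter the nucleus. Type I receptors of the BMP branch act mainly through SMAD1, SMAD5 and SMAD9, and those of the activin and TGF-beta branch through SMAD2 and SMAD3. BMP signals together with LIF are known to sustain mouse embryonic stem cells, and activin and nodal signals act in the same cells. Noggin binds BMP ligands outside the cell. Dorsomorphin is a kinase inhibitor that acts on the type I receptors ACVR1, BMPR1A and BMPR1B, and on other kinases such as AMPK. SB431542 inhibits the type I receptors ACVR1B, TGFBR1 and ACVR1C.

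The coding DNA of the kinase region is shown because it holds the codon of the gatekeeper residue, which differs between the targets of SB431542 and the other type I receptors. Each stretch of 60 bases is the sense strand of the kinase region in the GENCODE M21 transcript with the longest coding sequence, on GRCm38. Its first 27 bases encode the L45 loop, a short stretch known to set which SMADs a type I receptor binds. The capitals mark the codon of the gatekeeper residue, at the back of the ATP pocket where kinase inhibitors of this kind bind.
Bmpr1a: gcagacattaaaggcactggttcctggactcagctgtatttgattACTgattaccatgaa
Bmpr1b: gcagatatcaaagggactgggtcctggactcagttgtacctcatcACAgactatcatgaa
Acvr1: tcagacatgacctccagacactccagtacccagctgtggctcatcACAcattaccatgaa
Acvrl1: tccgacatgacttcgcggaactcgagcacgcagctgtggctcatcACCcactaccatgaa
Acvr1b: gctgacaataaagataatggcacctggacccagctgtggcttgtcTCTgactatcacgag
Tgfbr1: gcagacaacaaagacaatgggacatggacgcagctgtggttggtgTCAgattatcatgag
Acvr1c: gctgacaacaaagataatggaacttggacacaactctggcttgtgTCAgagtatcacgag

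The gatekeeper codon reads as threonine in Bmpr1a, Bmpr1b, Acvr1 and Acvrl1, and as serine in Acvr1b, Tgfbr1 and Acvr1c, the 3 receptors that SB431542 inhibits. Over the 60 bases Bmpr1b matched Bmpr1a at 48 positions, Acvr1 at 39 and Acvrl1 at 34. Acvr1b matched Tgfbr1 at 48 positions and Acvr1c at 49. Tgfbr1 and Acvr1b matched Bmpr1a at 44 and 41 positions, so the match count over the stretch does not follow the 2 branches. In the 27 bases of the loop, Bmpr1b matched Bmpr1a at 23 positions, Tgfbr1 and Acvr1b at 20 each, Acvr1 at 14 and Acvrl1 at 10. The stretch lies on the minus strand for Bmpr1a (chr14:34422787-34422846), Bmpr1b (chr3:141856576-141856635) and Acvr1 (chr2:58463086-58463145), and on the plus strand for Acvrl1 (chr15:101137375-101137434). In Acvr1b (chr15:101199002-101202024, plus), Tgfbr1 (chr4:47396573-47402849, plus) and Acvr1c (chr2:58284953-58287693, minus) an intron interrupts it, so that these intervals are longer than 60 bases. The seventh sequence, Acvr1c, is not one of the 10 genes and is shown because its receptor is a target of SB431542. It had 0 counts in all 6 libraries, so no Acvr1c transcript was detectable at this depth.

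Libraries held 31474666 to 35322844 gene counts. Across all genes the groups differed widely, with 64.2% of 15951 tested genes past an adjusted p of 0.05 (edgeR's quasi-likelihood test with Benjamini-Hochberg adjustment), 32.5% higher and 31.7% lower in BMP-inhibited cells. On the second principal component, which held 5.5% of the variance, BMP-inhibited replicates 1, 2 and 3 lay at -20.4, 27.2 and -4.4. Replicates 1 and 2 were thus its extremes. The calls, fold changes and list counts given here were recomputed without replicate 2. The list counts were not recomputed without replicate 1. All 12 embryonic stem cell markers, Pou5f1 and Nanog among them, were detected, with a summed level of 5412 to 5727 CPM in BMP-inhibited cells and 6000 to 6157 CPM in R2i controls. Of these 12 markers 2 rose (Utf1 and Dppa5a, log2 fold changes 0.87 and 0.83) and 7 fell, with Klf4 and Nanog at -0.81 and -0.47. CPM is counts relative to library size, scaled between libraries by TMM factors. The kinds of cell in these bulk libraries are not resolved: fewer cells with a transcript and less of it per cell cannot be told apart.

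The receptor repertoire differed between the groups in a mixed way. Of the 10 genes 6 rose in BMP-inhibited cells (Bmpr1a, Acvrl1, Tgfbr1, Bmpr2, Acvr2b and Tgfbr2), 2 fell (Acvr1b and Bmpr1b), and 2 did not pass the test (Acvr1 and Acvr2a). With 64.2% of all tested genes called, 8 called of 10 is not far from the background. Bmpr1b could be called only as lower, as described with its values, and 7 of the other 9 genes were called. The 3 libraries of one group lay entirely above or below those of the other for 7 of the 10 genes, where 68.6% of tested genes had such separate groups. The median log2 fold change was 0.33 for the 10 genes and -0.003 for all tested genes. Changes were mostly modest, as only Acvrl1 and Bmpr1b, both with few counts, differed at least 2-fold. Of all tested genes 15.7% did so.

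**Figure D1:**
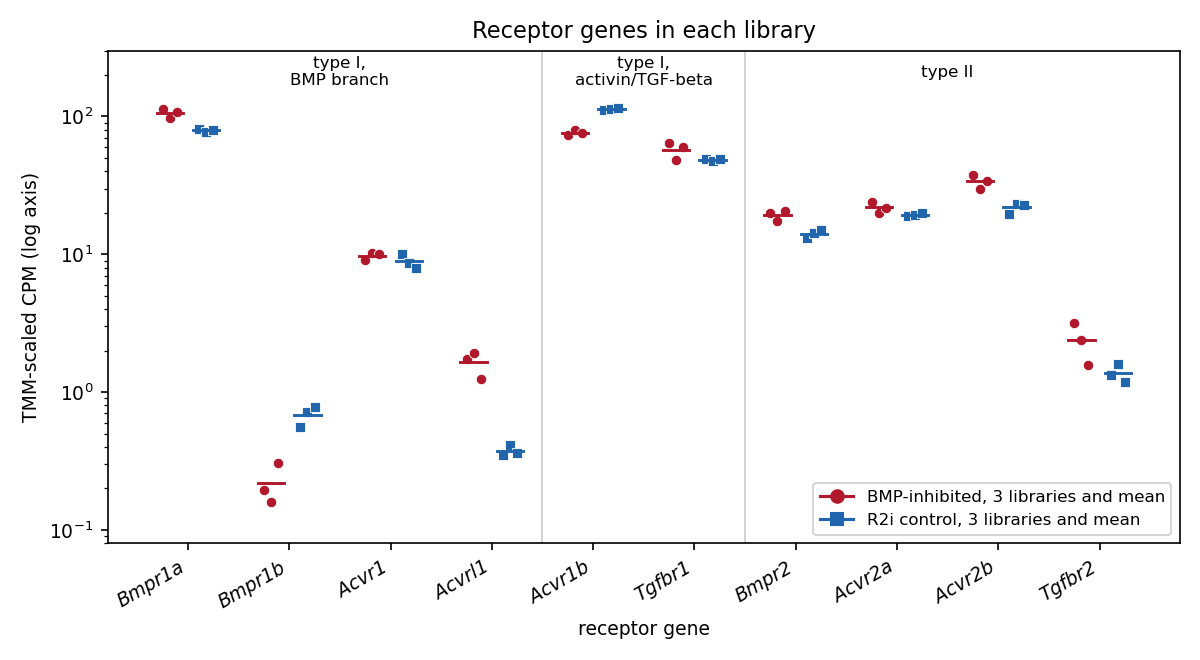
TMM-scaled CPM of each receptor gene (log axis) in the 3 BMP-inhibited libraries (circles) and the 3 R2i control libraries (squares), with the group mean as a line. Acvr1b is lower in all 3 BMP-inhibited libraries (72.9 to 79.8 against 112 to 116 CPM), Bmpr1a is higher in all 3 (97.7 to 114 against 77.4 to 81.3 CPM), and Bmpr1b and Acvrl1 are scarce in both groups. Values of different genes are not corrected for length here.

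Bmpr1a encodes BMPR1A, also called ALK3, a type I receptor for BMP2 and BMP4 and a target of dorsomorphin. It was at 114, 97.7 and 107 CPM in BMP-inhibited libraries, against 81.3, 77.4 and 79.6 CPM in R2i control libraries. All BMP-inhibited libraries were above all controls, with replicate 2 the nearest to them. The means were 106 ± 8.04 and 79.4 ± 1.93 CPM (SD, n = 3 each), a 1.34-fold rise (log2 fold change 0.42, SE 0.06, adjusted p = 7.04e-06). A change of this size or more was seen in 45.2% of tested genes. The gene (ENSMUSG00000021796) lies on chromosome 14 at 34410734 to 34503341 on GRCm38, and 4.57% of its exon bases overlap the antisense gene Gm17110, which had 0 counts in BMP-inhibited libraries and 1 count in the controls together.

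Acvr1 encodes ACVR1, or ALK2, which also binds BMPs and is also inhibited by dorsomorphin. It had 9.04, 10.3 and 10.0 CPM in BMP-inhibited libraries and 10.00, 8.66 and 7.99 CPM in R2i control libraries. The groups overlapped, and the difference did not pass the test (log2 fold change 0.14, SE 0.11, adjusted p = 0.288). Under the 16 other settings and left-out libraries its log2 fold change was between 0.06 and 0.23, with adjusted p from 0.131 to 0.694.

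The other 2 receptors of the BMP branch were scarce and moved in opposite directions. Bmpr1b encodes BMPR1B, or ALK6, close in sequence to BMPR1A and the third BMP receptor that dorsomorphin inhibits. It had 6, 5 and 10 counts in BMP-inhibited libraries and 19, 26 and 26 counts in R2i control libraries. That is 0.219 ± 0.0754 and 0.685 ± 0.117 CPM (SD, n = 3 each), a 3.07-fold fall (log2 fold change -1.62, SE 0.41, adjusted p = 0.00247). Bmpr1b reached the minimum of the count filter in the control libraries alone, so it could enter the test only as a gene lower in BMP-inhibited cells, and its call adds nothing to the count of fallers.

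Acvrl1 encodes ACVRL1, or ALK1, best known as the receptor of endothelial cells for BMP9 and BMP10. It had 54, 60 and 41 counts in BMP-inhibited libraries, against 12, 15 and 12 counts in R2i control libraries. Every BMP-inhibited library was above every control. The levels were 1.64 ± 0.350 and 0.375 ± 0.0335 CPM (SD, n = 3 each), a 4.32-fold rise (log2 fold change 2.11, SE 0.31, adjusted p = 2.21e-05). This was the largest change among the 10 genes, and 3.66% of all tested genes changed as much or more. Acvrl1 passed the filter in both groups. An antisense gene, Gm16031, covers 2.98% of its exon bases and had 0 counts in all libraries. Since ACVRL1 is an endothelial receptor, markers of that cell type were examined as well. Of the 9 endothelial markers 7 were tested, of which 5 rose and 1 fell (Pecam1, log2 fold change -0.49). Of all tested genes 32.5% rose and 31.7% fell. Without BMP-inhibited replicate 2 there were 2 endothelial fallers. Of the 5 risers 4 reached the minimum of the count filter in BMP-inhibited libraries alone and could be called only as higher. Among them were Tie1, with 311 counts in BMP-inhibited and 7 in R2i control libraries together, and Kdr, with 63 and 9. Of the 3 markers that reached that minimum in both groups 1 fell and 1 rose (Eng, described below with the co-receptors). The summed level of the 9 markers was 258 to 294 CPM in BMP-inhibited and 230 to 236 CPM in R2i control libraries. Most of that sum was Pecam1, Eng and Tek, which were abundant in both groups. The defining marker Cdh5, the endothelial cadherin, had 31 counts in BMP-inhibited libraries together and 3 in the controls, and Emcn had 0 in all 6. The part of such cells in the Acvrl1 result was not tested.

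Acvr1b encodes ACVR1B, or ALK4, the type I receptor for activin and nodal and a target of the SB431542 in both media. It was at 72.9, 79.8 and 75.3 CPM in BMP-inhibited libraries, against 112, 113 and 116 CPM in R2i control libraries. The BMP-inhibited libraries were all below the controls, by far more than the spread within either group. The means of 76.0 ± 3.55 and 114 ± 1.77 CPM (SD, n = 3 each) make a 1.50-fold fall (log2 fold change -0.58, SE 0.05, adjusted p = 3.9e-08), the smallest adjusted p of the 10. Acvr1b (ENSMUSG00000000532, chromosome 15, 101174067 to 101213684) shares no exon base with another annotated gene. It was thus the only well-counted receptor gene of the 10 that fell.

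Tgfbr1 encodes TGFBR1, or ALK5, the type I receptor for TGF-beta and the other detected target of SB431542. It had 64.5, 48.4 and 60.0 CPM in BMP-inhibited libraries, against 49.5, 47.2 and 49.5 CPM in R2i control libraries. BMP-inhibited replicate 2 lay among the controls, and the other 2 lay above them. The difference passed narrowly (log2 fold change 0.24, SE 0.08, adjusted p = 0.0159) and 64.1% of tested genes changed at least as much. The call was lost without BMP-inhibited replicate 1 (log2 fold change 0.16, adjusted p = 0.0738), without BMP-inhibited replicate 3 (0.21, adjusted p = 0.0662), without R2i control replicate 2 (0.21, adjusted p = 0.0811) and with library totals only (0.18, adjusted p = 0.0543).

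Of the 4 listed type II receptors 3 rose, where 32.5% of all tested genes did, and 0 fell, with edgeR's test and DESeq2 alike. At an unadjusted p under 0.05 there were 4 higher and 0 lower. The call of Tgfbr2, 1 of the 3, was lost when either of 2 libraries was left out. Amhr2, a type II receptor gene outside the 10, fell in edgeR's test (log2 fold change -0.44, adjusted p = 0.022). Acvr2b encodes ACVR2B, which binds activins, nodal and several BMPs. It had 37.5, 29.9 and 34.0 CPM in BMP-inhibited libraries, against 19.7, 23.2 and 22.9 CPM in R2i control libraries. The groups were separate, at 33.8 ± 3.82 and 21.9 ± 1.96 CPM (SD, n = 3 each), a 1.54-fold rise (log2 fold change 0.62, SE 0.09, adjusted p = 1.44e-05). Its relative Acvr2a encodes ACVR2A, with overlapping ligands. It had 24.0, 20.1 and 21.7 CPM in BMP-inhibited libraries and 18.9, 19.3 and 19.8 CPM in R2i control libraries. Although the groups did not overlap, the difference missed the threshold (log2 fold change 0.18, SE 0.08, adjusted p = 0.0559), and leaving out BMP-inhibited replicate 2 brought it past the test (0.25, adjusted p = 0.008). Acvr2a shares 7.84% of its exon bases with Orc4 on the other strand, and Orc4 did not pass the test (log2 fold change 0.07, adjusted p = 0.246).

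Bmpr2 encodes BMPR2, a type II receptor for BMPs with an unusually long cytoplasmic tail. It had 19.9, 17.4 and 20.5 CPM in BMP-inhibited libraries, against 13.2, 14.3 and 14.9 CPM in R2i control libraries. All BMP-inhibited libraries were higher, with means of 19.3 ± 1.63 and 14.1 ± 0.871 CPM (SD, n = 3 each), a 1.36-fold rise (log2 fold change 0.45, SE 0.09, adjusted p = 0.000358). Tgfbr2 encodes TGFBR2, the type II receptor for TGF-beta. It had 99, 74 and 52 counts in BMP-inhibited libraries and 46, 58 and 39 counts in R2i control libraries. After scaling, BMP-inhibited replicate 3, at 1.58 CPM, lay within the control range of 1.18 to 1.60 CPM. The rise was 1.73-fold (log2 fold change 0.79, SE 0.26, adjusted p = 0.0153), and it was not called without BMP-inhibited replicate 1 (0.52, adjusted p = 0.106) or without R2i control replicate 3 (0.68, adjusted p = 0.0671).

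**Figure D2:**
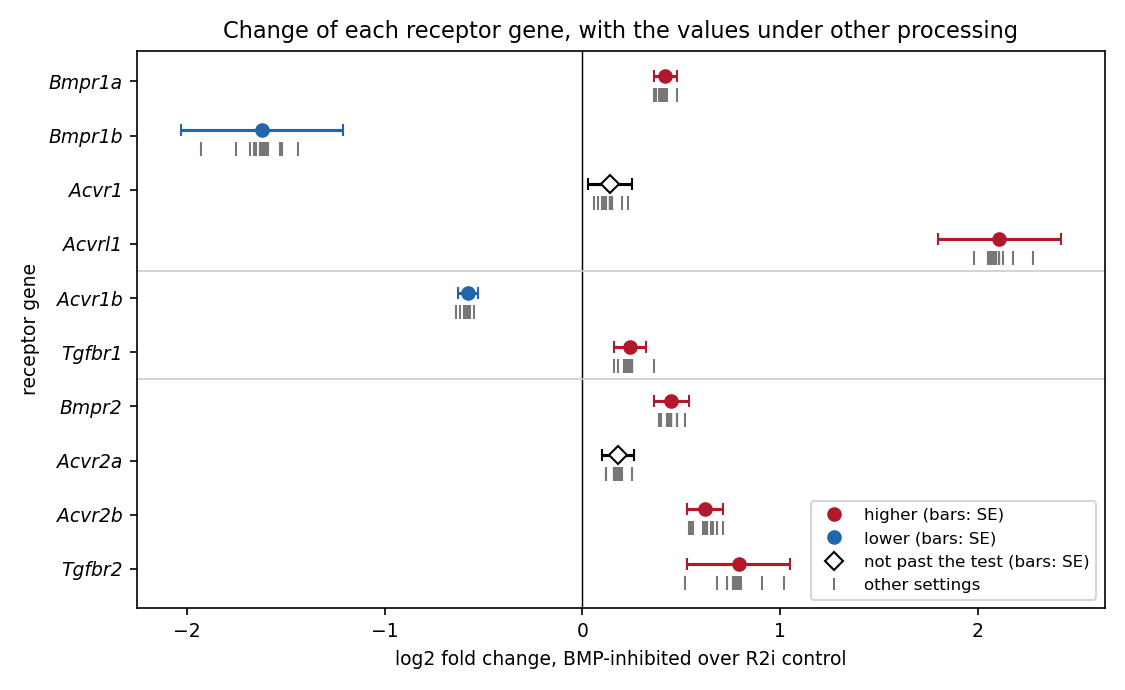
Log2 fold change of each receptor gene, BMP-inhibited over R2i control, with its SE as a bar (filled red, higher; filled blue, lower; open, not past the test) and, as grey ticks, the value under each of 16 other settings and left-out libraries. No gene changes side of zero; Acvrl1 (2.11) and Bmpr1b (-1.62) lie farthest out and have wide errors, while Acvr1b (-0.58) and Bmpr1a (0.42) have the narrowest ones.

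Levels of different receptors were compared as CPM per kilobase of the gene's summed exons. In BMP-inhibited cells the order was Acvr1b (17.2 ± 0.802 CPM per kilobase, SD, n = 3), Bmpr1a (16.7 ± 1.27), Tgfbr1 (8.82 ± 1.27), Acvr2b (8.60 ± 0.972), Acvr2a (3.86 ± 0.350), Acvr1 (2.03 ± 0.137), Bmpr2 (1.07 ± 0.0909), Acvrl1 (0.384 ± 0.0822), Tgfbr2 (0.291 ± 0.0985) and Bmpr1b (0.0368 ± 0.0126). The ranges over 3 libraries overlapped between Acvr1b and Bmpr1a, between Tgfbr1 and Acvr2b and between Acvrl1 and Tgfbr2, so the order within these pairs was not resolved. In R2i controls the first 7 positions held the same genes in the same order. Acvr1b led at 25.8 ± 0.400 CPM per kilobase, followed by Bmpr1a at 12.5 ± 0.304, Tgfbr1 at 7.46 ± 0.199, Acvr2b at 5.58 ± 0.498, Acvr2a at 3.40 ± 0.0799, Acvr1 at 1.84 ± 0.212 and Bmpr2 at 0.786 ± 0.0484. The last 3 were Tgfbr2 (0.168 ± 0.0260), Bmpr1b (0.115 ± 0.0197) and Acvrl1 (0.0880 ± 0.00785), and here only the ranges of Bmpr1b and Acvrl1 overlapped. Bmpr1b and Acvrl1 were thus the 2 lowest in controls, in an unresolved order, whereas in BMP-inhibited cells Acvrl1 lay above Bmpr1b in all 3 libraries. The position of Bmpr2 depends on its annotated length of 17983 exon bases, the longest of the 10. Without division by length it came before Acvr1 in both groups.

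Acvr1b and Bmpr1a, close to each other in BMP-inhibited cells, were further apart in R2i controls. The ratio of Acvr1b to Bmpr1a, per kilobase, was 0.921, 1.17 and 1.01 in BMP-inhibited libraries and 1.99, 2.11 and 2.09 in R2i control libraries. The 2 groups of ratios were far apart. Summed over type I receptors, the BMP branch had 19.2 ± 1.12 CPM per kilobase in BMP-inhibited cells and 14.5 ± 0.441 in R2i controls, and the activin and TGF-beta branch had 26.0 ± 0.473 and 33.2 ± 0.486 (SD, n = 3 each). The BMP branch held 43.4%, 41.4% and 42.3% of the type I level in BMP-inhibited libraries, against 31.3%, 30.2% and 29.9% in R2i control libraries. Members of a branch did not all move together. Tgfbr1 was at 8.82 ± 1.27 CPM per kilobase in BMP-inhibited cells and 7.46 ± 0.199 in R2i controls, opposite to Acvr1b. In the BMP branch Bmpr1b fell while Bmpr1a rose. The type I sum itself was 45.2 ± 1.57 and 47.8 ± 0.595 CPM per kilobase, and the type II sum 13.8 ± 1.44 and 9.93 ± 0.612. The type II sum was thus below the type I sum in both groups. Among the listed type II genes, Acvr2b made up 61.4% to 62.7% of the sum in BMP-inhibited and 54.3% to 57.4% in R2i control libraries. These sums and shares describe transcripts of the listed genes and carry no test. The type II sum leaves out Amhr2, a type II receptor gene with 2005 exon bases, against 3928 for Acvr2b. The level of Amhr2 was 9.19 ± 2.74 CPM in BMP-inhibited cells and 12.5 ± 0.669 CPM in R2i controls (SD, n = 3 each). With Amhr2 included, the share of Acvr2b would be lower in both groups and the rise of the type II sum smaller. The sum and the share therefore hold for the listed genes only.

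**Figure D3:**
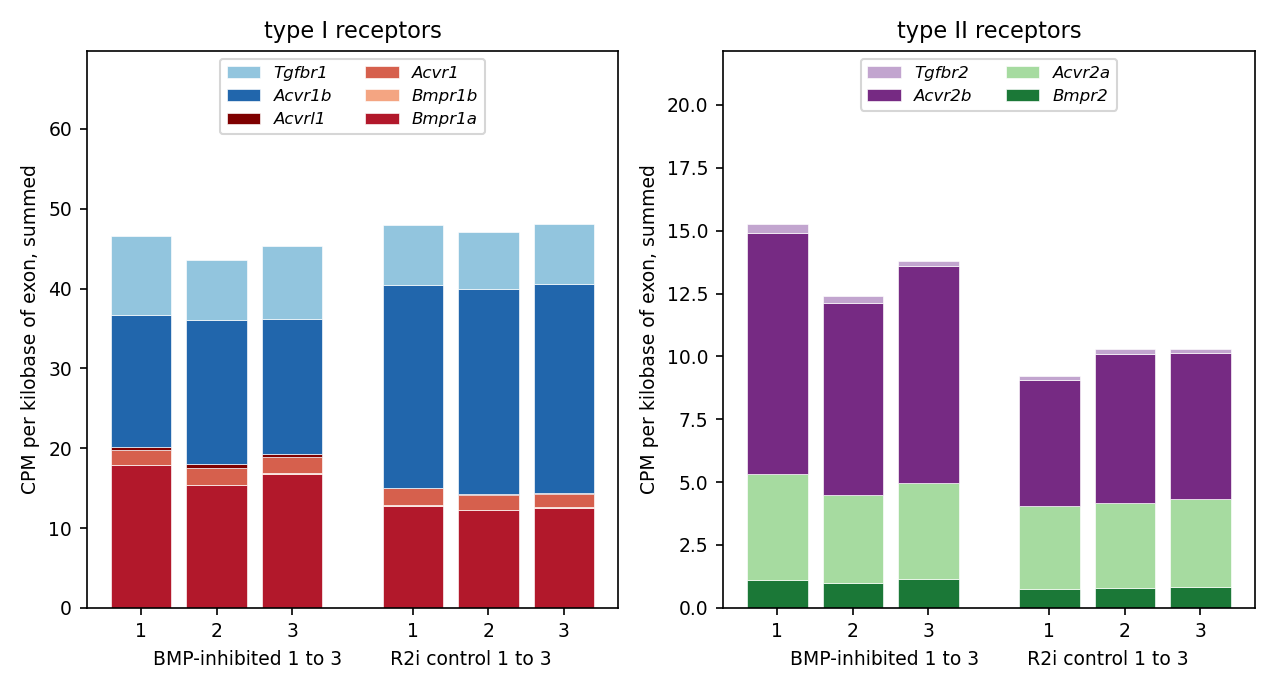
CPM per kilobase of exon, stacked over the 6 type I receptor genes (left) and the 4 type II receptor genes (right), in each BMP-inhibited and each R2i control library. Type I stacks reach 43.5 to 46.6 in BMP-inhibited and 47.1 to 48.2 in R2i control libraries, with a larger Bmpr1a and a smaller Acvr1b segment in all 3 BMP-inhibited ones; type II stacks reach 12.4 to 15.3 and 9.23 to 10.3.

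For 6 of the 10 genes (Bmpr1a, Acvr1b, Tgfbr1, Bmpr2, Acvr2a and Acvr2b) BMP-inhibited replicate 2 was the nearest of the 3 to the control mean, as it was for 44.3% of tested genes. Without it 7 of the 10 genes rose and 2 fell, where 10680 of 16385 tested genes were called. Without replicate 1 there were 4 risers, since Tgfbr1 and Tgfbr2 no longer passed, and 2 fallers. Over all genes 10117 of 16385 were called in that fit.

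Profiles over the 6 libraries most like those of the most changed receptor genes were sought among 10672 tested genes. Their mean log2 CPM reached 2, and genes with clone or predicted names were left out. Closest to Acvrl1 were Sbk1 (Pearson r = 0.9998 over 6 libraries), Sac3d1 (0.9992) and Eps8 (0.9985), which had log2 fold changes of 0.49, 0.84 and 0.95. Closest to Bmpr1b were Nacc1 (0.9962), Troap (0.9959) and Smim4 (0.9952), with log2 fold changes of -0.08, -0.41 and -1.11, of which that of Nacc1 did not pass the test (adjusted p = 0.0615). Such values are common with 2 groups of 3 libraries: 12.4% of the genes compared had an r of at least 0.95 with Acvrl1, and 4.69% with Bmpr1b.

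The remaining kinase receptor of the family that was detected is Amhr2, the type II receptor for anti-Müllerian hormone. It was lower in BMP-inhibited cells, at 9.19 ± 2.74 against 12.5 ± 0.669 CPM (SD, n = 3 each; log2 fold change -0.44, SE 0.16, adjusted p = 0.022). Co-receptors, which present ligands to these receptors, and the decoy receptor BAMBI moved both ways. Of 9 tested 3 rose, 3 fell and 3 were not called, where 32.5% of all tested genes rose and 31.7% fell. The counts of this list are thus near the background, and its median log2 fold change was 0.12. Eng, which encodes the co-receptor endoglin and partners ACVRL1 in endothelium, rose to 121 ± 5.61 CPM in BMP-inhibited cells, against 42.4 ± 1.37 CPM in R2i controls (log2 fold change 1.52, SE 0.05). Bambi rose by 0.91 (SE 0.09). Neo1, a receptor for repulsive guidance molecules that act as BMP co-receptors, and Tdgf1, the nodal co-receptor Cripto, had log2 fold changes of -0.60 (SE 0.05) and -0.26 (SE 0.04). Eng overlaps the exons of Fpgs on the other strand over 1.51% of its exon bases.

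Among 20 genes for proteins that bind receptors or control their turnover, 19 were tested, of which 8 rose, 3 fell and 8 were not called (median 0.08). Usp11, which encodes a deubiquitinase reported to act on TGFBR1, fell to 65.0 ± 2.95 CPM in BMP-inhibited cells, against 206 ± 5.31 CPM in R2i controls (log2 fold change -1.67, SE 0.05). Ppp1r15a, the phosphatase subunit GADD34, had a log2 fold change of -0.45 (SE 0.04). Nedd4l, a ubiquitin ligase, and Strap, a receptor-associated protein, rose by 0.49 (SE 0.06) and 0.33 (SE 0.04). With 11 of 19 called, this list is below the 64.2% of all tested genes.

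Ligand genes also split. Of 22 BMP and GDF genes 11 had enough counts to be tested, and 4 rose, 4 fell and 3 were not called, where 32.5% of all tested genes rose and 31.7% fell. Of the 4 risers Bmp2 and Gdf5 reached the minimum of the count filter in all 3 libraries of the BMP-inhibited group alone, so they could be called only as higher. Of the 9 that reached it in both groups 2 rose and 4 fell. Gdf3, a ligand that uses nodal receptors, was at 96.9 ± 2.09 CPM in BMP-inhibited cells and 137 ± 1.49 CPM in R2i controls (log2 fold change -0.50, SE 0.04). Gdf15 had a log2 fold change of -0.51, Bmp4 rose by 0.37 and Gdf5, with 139 and 30 counts, by 2.32. Of 11 activin, nodal and TGF-beta genes 9 were tested, of which 4 rose and 3 fell. Nodal, a ligand of ACVR1B, rose to 121 ± 8.69 CPM in BMP-inhibited cells, against 86.1 ± 2.17 CPM in R2i controls (log2 fold change 0.49, SE 0.05). Tgfb2 rose by 1.82, and Inhbe and the nodal antagonist gene Lefty2 had log2 fold changes of -2.15 and -2.06 at low levels. Lefty2 reached the filter's minimum in all libraries of the controls alone. Gdf5, Bmp4 and Tgfb2 overlap antisense genes, Gdf5 over 40.34% of its exon bases.

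Of 17 secreted antagonists and modulators 8 were tested, of which 5 rose and 2 fell (median 0.52). Of all tested genes 32.5% rose and 31.7% fell. Of the 5 risers Nog and Nbl1 reached the filter's minimum throughout in BMP-inhibited libraries alone, so they could be called only as higher. Of the 6 that reached it in both groups 3 rose and 2 fell. Twsg1 rose by 0.43 and the activin antagonists Fst and Fstl3 by 0.61 and 2.14, while Dand5 had a log2 fold change of -1.47. Fstl3 shares 47.32% of its exon bases with an antisense gene. Nog itself, the gene of the added antagonist, had 40 counts in BMP-inhibited and 16 in R2i control libraries together. Of 8 SMAD genes 7 were tested, 3 rising and 2 falling. The receptor-activated SMADs of the BMP branch, Smad1 and Smad5, had log2 fold changes of -0.32 (SE 0.07) and -0.36 (SE 0.06). Smad2, of the activin branch, rose by 0.34 (SE 0.06), and the inhibitory Smad7 by 0.46 (SE 0.12).

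**Figure D4:**
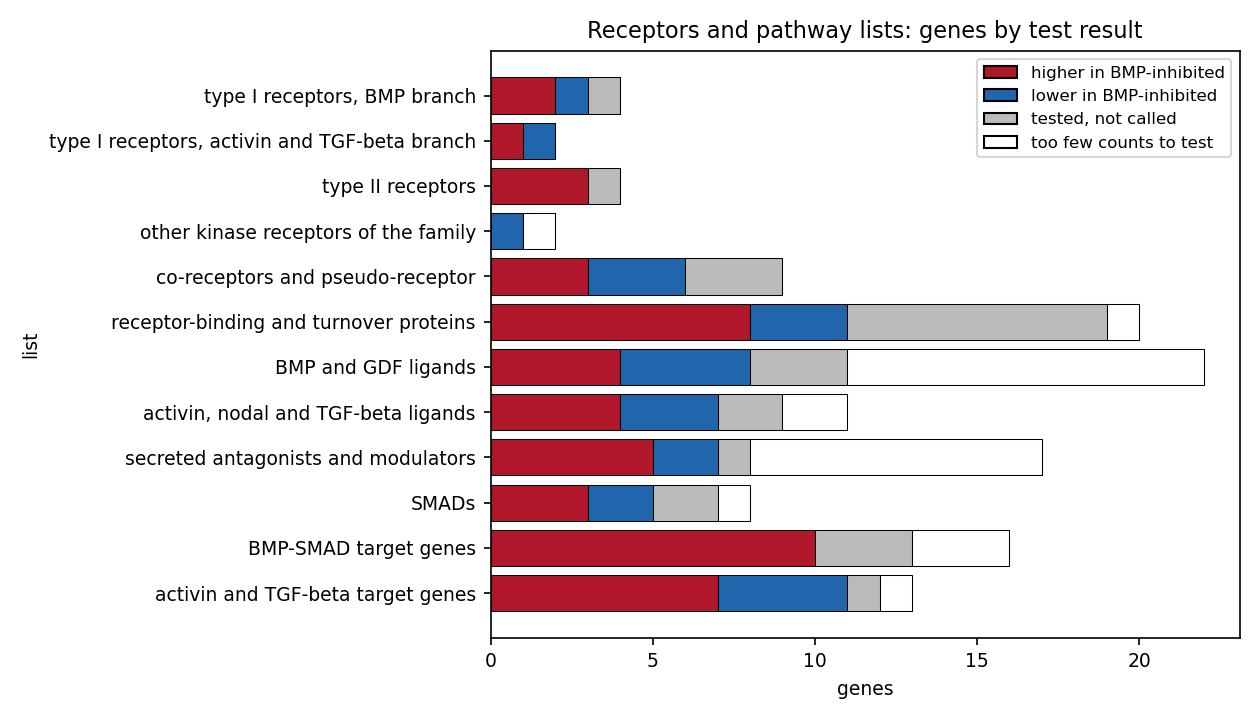
Number of genes in the receptor groups and in 9 other pathway lists that were higher (red), lower (blue), tested but not called (grey) or too scarce to test (white) in BMP-inhibited cells against R2i controls. Lists hold genes of both directions, except the 4 listed type II receptors (3 higher, 0 lower), BMP-SMAD targets (10 higher, 0 lower of 13 tested) and the 2 other kinase receptors (1 lower). That 1 lower gene is Amhr2, also a type II receptor.

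Genes downstream of the receptors were counted as well. Of 13 tested BMP-SMAD target genes 10 rose and 0 fell in edgeR's test (median 0.94), where 32.5% of all tested genes rose; 11 and 0 did so at an unadjusted p under 0.05, and 9 and 0 with DESeq2. For 1 of the 10, Msx1, the filter's minimum was reached throughout in BMP-inhibited libraries alone. The 10 included Gata3, Id2, Dlx3 and Gata2, the members with the smallest p, at 2.73, 0.94, 3.08 and 1.86. Changes in the list were not uniform. Among the Id genes, Id1 rose by 2.11 (SE 0.18) and Id3 by 0.21 (SE 0.08), while Id4 was not called (-0.02, SE 0.11). Gata3 is also counted among the trophectoderm markers below. Of 12 tested targets of activin and TGF-beta 7 rose and 4 fell (median 0.47), with Ccn2 and Tagln at 1.72 and 2.80 and Tgif1 and Tgfbi at -0.62 and -1.90. Tagln shares 62.42% and Ccn2 23.24% of its exon bases with an antisense gene. Markers of other cell states moved beside the receptors. Of all tested genes 32.5% rose and 31.7% fell. Of 10 tested trophectoderm markers 8 rose and 0 fell. Hand1 reached the filter's minimum throughout in BMP-inhibited libraries alone and could be called only as higher. Of the 9 others 7 rose, while Eomes and Tfap2c were not called. Too scarce to test were Cdx2 (43 and 2 counts in BMP-inhibited and R2i control libraries together) and Elf5 (14 and 11). Of 7 fibroblast markers 4 rose and 1 fell, and of 9 primitive endoderm markers 4 rose and 3 fell. Of 10 markers of the 2-cell-like state, a rare state resembling the cleavage embryo, 10 rose. The summed level of 12 trophectoderm markers was 412 to 499 CPM in BMP-inhibited libraries and 230 to 237 CPM in R2i controls, that of 12 fibroblast markers 29.0 to 30.3 and 27.1 to 29.6 CPM, and that of 10 primitive endoderm markers 740 to 791 and 710 to 721 CPM. For 12 markers of the 2-cell-like state it was 31.9 to 46.0 and 0.0276 to 0.0877 CPM, with 8 of them at 0 in every control library. All 10 that were tested reached the filter's minimum throughout in BMP-inhibited libraries alone and could be called only as higher, so their count carries no weight. Most of the fibroblast sum was Fbln2, a matrix gene that fell to 15.6 ± 1.25 CPM in BMP-inhibited cells, against 20.9 ± 0.784 CPM in R2i controls (SD, n = 3 each). Acta2, the smooth muscle actin of myofibroblasts, had 226 counts in BMP-inhibited libraries together and 0 in the controls, and the matrix gene Postn had 47 and 2. Both reached the minimum in BMP-inhibited libraries alone and could be called only as higher. Of the 4 fibroblast markers that reached it in both groups 2 rose and 1 fell. Col1a1, a collagen gene, rose by 1.43 (SE 0.20). Most of the primitive endoderm sum was Sparc, at 602 ± 27.6 CPM in BMP-inhibited cells and 464 ± 10.2 CPM in R2i controls. The 3 fallers of that list were Lama1, Sox7 and Gata4, with log2 fold changes of -1.59, -1.08 and -0.74. The part of these cells in the receptor results was not tested.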

How the data were processed

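The authors deposited raw read counts per gene for each of the 6 libraries, as the whole numbers in the tables show. Per the submitters' processing notes the build was GRCm38.p6 and the tools, listed without roles, were HTSeq 0.9.1, STAR 2.6.1, DESeq2, CASAVA 1.8.2 and cutadapt 1.4.2; the annotation release and strand setting are not given in the sources used here. The 5 rows that name no gene held 25.6% to 26.4% of reads and were left out.

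Symbols, positions and lengths came from GENCODE M21 on GRCm38, which matched 53360 of 53465 identifiers. Without a known strand setting, reads in antisense overlaps are uncertain. No receptor transcript had a near-identical copy (BLAST, 90% identity over 50% of the longest transcript). Counts were filtered with the default of edgeR 4.0.16 (minimum count 10, total 15), scaled by TMM and compared with its two-sided quasi-likelihood test, adjusted by Benjamini-Hochberg over all tested genes, threshold 0.05; SEs come from the unshrunk coefficient and the F statistic. The test was checked on simulated data. R 4.3.3 and Python 3.11.15 were used. P-values measure the spread between these libraries, which may be partly technical.

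The receptors and the pathway lists were chosen with earlier results of these data known. Some genes stand in more than 1 list, among them Gata3, Eng and Lefty2, so the list counts are not independent of each other. All 10 receptors are named. Other lists give up to 4 tested members with the smallest p. Some genes outside that rule (Nog, Cdh5, Emcn, Tek, Pou5f1, Bmp2, Nbl1, Msx1, Id1, Id3, Id4, Orc4, Hand1, Eomes, Tfap2c, Cdx2 and Elf5) are named for context after their values were seen. Alternatives were DESeq2 1.42.0, limma-voom (limma 3.58.1), other scalings and filters, smooth offsets over GC content and length (loess span 0.3), a replicate block and leaving out each library.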

Additional observations from a re-analysis of the deposited data

How the results depend on the processing

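Under the 16 alternatives Bmpr1a, Bmpr2, Acvr2b and Acvrl1 stayed higher, Acvr1b stayed lower and Acvr1 stayed uncalled. Bmpr1b stayed lower in the 15 that tested it, but in all of these except no count filter it entered the test through the controls alone. The stricter count filter (1 CPM in 3 libraries) dropped it for its few counts, which left 1 faller in place of 2. Leaving out libraries gave 4 to 7 risers and 2 fallers; the changed calls of Tgfbr1, Tgfbr2 and Acvr2a are given above, and the cause was not tested. DESeq2, limma-voom, DESeq2 size factors, upper-quartile factors, no count filter and GC and length offsets each gave 6 risers and 2 fallers, and library totals only gave 5 and 2. The background differed between settings, so equal counts are not like for like. Over all genes 10236 of 15951 were called in the main fit, 9824 of 15951 with DESeq2 and 10890 of 28371 with no count filter. The stricter filter called 9444 of 13679. With a library left out, calls ran from 9269 of 16335 to 10680 of 16385. Separate groups numbered 6 or 7 with other scalings, and 7 or 8 with a library left out, where groups separate more easily. The share over all tested genes, 68.6% with all 6 libraries, was not computed for these alternatives. Without BMP-inhibited replicate 2, an alternative for the lists chosen after seeing the data, no list's count of risers or fallers moved by over 1.5 times other than the endothelial fallers given above. With DESeq2, 2 BMP and GDF ligand genes rose in place of 4. Of 45 pairs of receptors, 42 in BMP-inhibited cells and 44 in R2i controls kept their order without division by length. The BMP-branch share of the type I level was 43.9% and 32.2% with the longest transcript as length, and 46.8% and 35.5% without division by length, in BMP-inhibited cells and R2i controls. Deviations of same-numbered libraries correlated at -0.044, 0.008 and 0.029, and 2 of 6 libraries correlated best with their own number, so the numbers were not taken as pairs. A replicate block gave 6 risers and 2 fallers, with and without GC and length offsets. Depth limits Bmpr1b, Acvrl1 and Tgfbr2, the receptors with the widest errors.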

Other observations

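A pair of receptor genes with opposite changes are direct neighbours. On chromosome 15 of GRCm38, Acvrl1 ends at 101145336 and Acvr1b starts at 101174067 on the same strand, 28.7 kb further on, with 0 annotated genes between them. In BMP-inhibited cells Acvrl1 was 4.32-fold higher and Acvr1b 1.50-fold lower than in R2i controls. The Acvrl1 change rests on 155 counts in BMP-inhibited and 39 in R2i control libraries together. With 32.5% of all tested genes higher and 31.7% lower, opposite calls in a pair of genes are not unusual. How often neighbouring genes had them was not computed. A second pair of neighbours is Acvr1c and Acvr1 on chromosome 2, 30.7 kb apart, again with 0 annotated genes between them: Acvr1c had 0 counts in all 6 libraries, while Acvr1 had 265 to 342 counts in each.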
